A study of Mus musculus with 4 samples.

Results

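The genes described here encode the proteasome, and they were taken as every gene whose symbol in the platform annotation begins with Psma, Psmb, Psmc or Psmd, from probe sets that carry 1 gene symbol. The rule found 40 genes, read by 80 probe sets, of 18194 genes and 45101 probe sets on the array. All but Psmc3ip encode subunits or assembly factors of the proteasome. Psmc3ip shares the prefix only and encodes a protein of meiotic recombination.

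RNA came from ST2 cells, an established fibroblast-like line of BALB/c bone marrow stroma, and was read on Affymetrix Mouse Genome 430 2.0 arrays with 1 array per group. Control cells were kept at 37 °C. The other 3 groups received pulsed ultrasound of low intensity (LIPUS), which is used clinically to speed fracture healing, at 25 mW per square cm for 20 min, and were harvested after a further 0.5, 1 or 3 h at 37 °C. All groups were grown in medium with 10% serum under 5% CO2, and the labels give neither the number of cultures behind an array nor the harvest time of the control.

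The proteasome is the protease that degrades ubiquitin-tagged proteins. Its barrel-shaped core particle has outer rings of alpha subunits, which gate the entrance, and inner rings of beta subunits, some of which carry the proteolytic sites. A regulatory particle on the barrel's end binds ubiquitin chains, removes them and feeds the unfolded substrate inward. Cells exposed to heat or to misfolded protein raise chaperone genes through heat shock factors, whereas proteasome genes are known to be raised together through the transcription factor NFE2L1 when proteasome activity is short. Because a strong chaperone response followed LIPUS in these cells, the comparisons below ask whether proteasome transcripts moved with it.

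The deposited values are log2 signals, and the median of all of them, 5.23, served as a floor under which a probe set was taken as not measured. The brightest probe set stood for each gene. Of the 40 genes, 37 lay above the floor on all 4 arrays, and 30 of these had a mean log2 signal above 10. They are called the measured genes below. Psma8, a testis form of an alpha subunit, Psmb8, an inducible catalytic subunit, and Psmb11, the catalytic subunit of thymic epithelium, lay under the floor on all arrays. Log2 signals of Psma8 were 3.08, 3.47, 3.25 and 3.52 on the control, 0.5 h, 1 h and 3 h arrays. In the same order, the brighter of the Psmb8 probe sets was at 5.14, 4.88, 5.12 and 5.04, and Psmb11 was at 4.53, 4.55, 4.31 and 4.65. No ratio was formed for these 3 genes.

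The arrays were closely alike, with median log2 signals of 5.21 to 5.25 and a Pearson's r across probe sets of 0.996 to 0.997. Of 12 stromal and fibroblast markers, 11 lay above the floor on every array, Thy1 being the exception. The leukocyte gene Ptprc, the endothelial genes Pecam1 and Cdh5 and the epithelial gene Cdh1 lay under it on every array. One marker each of blood cells (Cd3e) and endothelium (Kdr) and 2 of epithelium (Epcam and Krt8) lay above it, at log2 signals of 5.51 to 7.51. The median log2 ratio to the control array of the poly-A spike transcripts, which are of bacterial origin, was -0.05, 0.28 and 0.41 at 0.5, 1 and 3 h, and that of 18S ribosomal RNA was 0.96, 1.91 and 1.79. Their part in the values below was not tested.

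Proteasome transcripts stayed close to their control level after LIPUS. At 0.5, 1 and 3 h the median log2 ratio of the 37 measured genes was 0.05, 0.06 and 0.01, beside 0.01, 0.02 and 0.01 for all measured genes. None of the 37 reached 2-fold in either direction at any time. By a finer rule of 1.2-fold, a log2 ratio of 0.26, none was higher at any time, and 1 gene, Psmd2, was lower at 1 h and at 3 h. With 1 array per group there is no test, so these statements describe the 4 arrays. In bulk RNA, fewer cells that hold a transcript and less of it in each cell cannot be told apart. All 3 LIPUS ratios share the 1 control array, so they are not independent of each other.

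**Figure D1:**
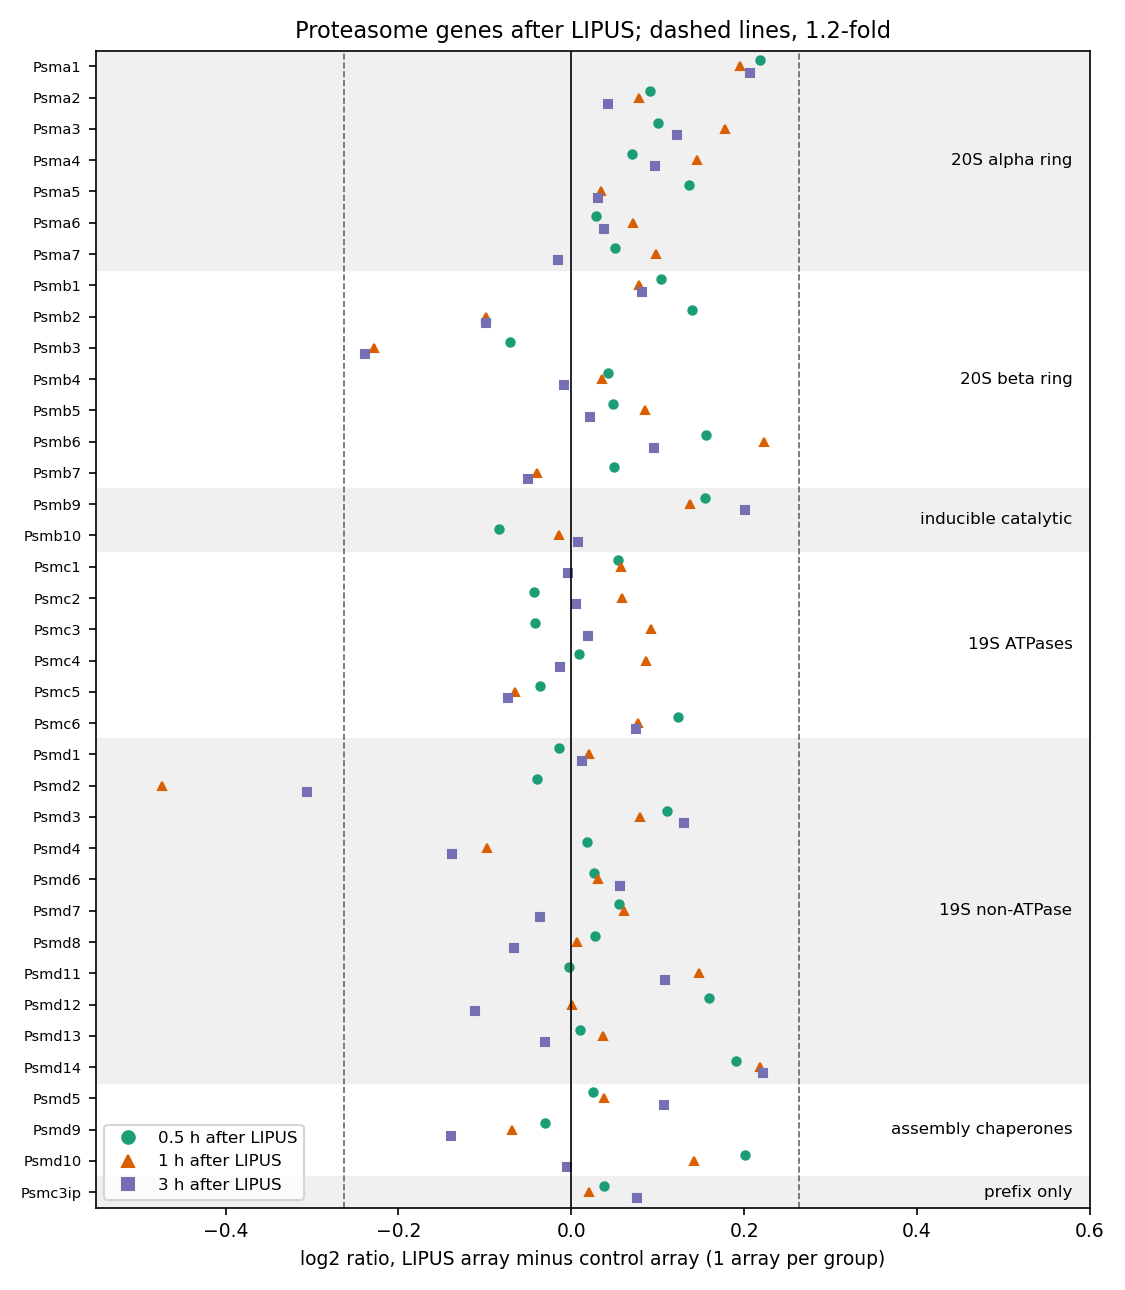
Log2 ratio of each LIPUS array to the control array (x axis) for the 37 measured genes, grouped by role (rows); each symbol is 1 array pair and the dashed lines mark 1.2-fold. Apart from Psmd2 at 1 h (-0.47) and 3 h (-0.31), all points lie between the dashed lines.

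The counts can be read against all measured genes. At 0.5 h, 0 of 37 proteasome genes reached 2-fold, where 0.138% of 11575 genes did, 0 were at least 1.2-fold higher (2.61% of all genes) and 0 were at least 1.2-fold lower (2.5%). At 1 h the counts were again 0 past 2-fold (0.191% of 11498 genes) and 0 higher by 1.2-fold (9.19%), with 1 lower by 1.2-fold (7.5%). At 3 h they were 0 past 2-fold (0.0691% of 11575 genes), 0 higher by 1.2-fold (5.84%) and 1 lower by 1.2-fold (5.37%). At 2-fold, so few genes of any kind passed that a count of 0 among 37 is near the background. At 1.2-fold the proteasome genes' share of calls lay under the background in both directions at all 3 times, and that difference has no test here.

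The split of all genes between higher and lower calls at 1.2-fold moves with the scaling. At 1 h, 55.1% of such calls were higher as deposited, 63.9% after centring each array on its median and 42.3% after quantile normalization. For the proteasome genes the median ratio at 1 h was between 0.02 and 0.08 under the settings tried.

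Small positive ratios were more frequent than negative ones at the early times. At 0.5 h, 28 of 37 genes were above 0, or 75.7%, against 52.7% of all genes. At 1 h 29 of 37 were, or 78.4% against 54.6%, and at 3 h 21 of 37, or 56.8% against 52.2%. Most proteasome genes are bright, and no share above 0 was taken for bright genes alone. With the floor at the 75th percentile of all values, the 1 h median was 0.058 for proteasome genes and 0.053 for all genes. At 0.5 h it was 0.045 against 0.015. Single ratios near these medians are within the disagreement between probe sets of 1 gene. Over the 17 proteasome genes with at least 2 probe sets above the floor, the SD of the difference between the brightest pair, divided by the square root of 2, was 0.09 at 0.5 h, 0.11 at 1 h and 0.10 at 3 h. The 2 brightest probe sets gave the same sign for 10, 12 and 13 of those 17 genes in that order. Whether a gene counts as above 0 can thus depend on the probe set that stands for it.

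The spread of each gene over the 4 arrays was narrow. The median distance between a proteasome gene's highest and lowest array was 0.11 on the log2 scale, against 0.20 for all 11015 genes above the floor on every array, and 35 of 37 (94.6%) stayed within 1.2-fold, against 70.2% of all genes. The exceptions were Psmd2 and Psmd12, a lid subunit of the regulatory particle whose log2 signals were 10.17, 10.33, 10.17 and 10.06 in array order. Bright genes were steadier in general. Among the 2131 genes with a mean log2 signal above 10, the median distance was 0.14 and 85.9% stayed within 1.2-fold, and for the 30 proteasome genes of that brightness the values were 0.12 and 93.3%. The highest array was the control for 4 proteasome genes, 0.5 h for 12, 1 h for 14 and 3 h for 7. In percent of genes these are 10.8, 32.4, 37.8 and 18.9, against 25.2, 19.6, 33.6 and 21.6 over all genes above the floor on every array.

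The alpha subunits of the core particle, Psma1 to Psma7, form the gated outer rings. By their brightest probe sets, all 7 had ratios above 0 at 0.5 h and at 1 h and 6 of 7 at 3 h. Over all genes the shares above 0 were 52.7%, 54.6% and 52.2%. The alpha medians were 0.09, 0.10 and 0.04 on the log2 scale. Psma1 stood at the upper end, with a log2 signal of 11.31 on the control array, 11.53 at 0.5 h, 11.51 at 1 h and 11.52 at 3 h. Its control array was the lowest of the 4, and the 3 LIPUS arrays were nearly level, at ratios of 0.22, 0.20 and 0.21. A second, much dimmer Psma1 probe set, at 5.62 on the control array, had ratios of -0.13, 0.22 and -0.12, so the course is not shared by both. Psma3 had log2 signals of 12.22, 12.32, 12.40 and 12.34 in the same array order, with its highest value at 1 h. By their brightest probe sets the other alpha genes ranged from -0.02 (Psma7 at 3 h) to 0.15 (Psma4 at 1 h). At 1 h a second Psma5 probe set, nearly as bright, had -0.08, against 0.03 for the brightest. A second Psma7 probe set had 0.22 at 1 h, against 0.10.

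The beta subunits Psmb1 to Psmb7 form the inner rings, and 3 of them are proteases. Psmb5 carries the chymotrypsin-like site and had log2 signals of 11.80 on the control array, 11.85 at 0.5 h, 11.89 at 1 h and 11.82 at 3 h. Psmb6, with the caspase-like site, had 10.84, 10.998, 11.06 and 10.94, and Psmb7, with the trypsin-like site, had 12.07, 12.12, 12.03 and 12.02. The 1 h ratio of Psmb6, 0.22, was the highest of the proteasome genes at that time and still short of 1.2-fold. Psmb5 and Psmb7 stayed within 0.09 of the control on the log2 scale at every time. Psmb2, a structural beta subunit, had signals of 10.52, 10.66, 10.42 and 10.42, above the control at 0.5 h and below it afterwards.

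Psmb3, another structural beta subunit, shows how far the probe sets can part. Its brighter probe set had log2 signals of 10.81 on the control array, 10.74 at 0.5 h, 10.58 at 1 h and 10.57 at 3 h. The dimmer one had 10.18, 10.29, 10.41 and 10.32. At 1 h the ratios were -0.23 and 0.22, so no direction can be given for this gene. After quantile normalization and after cyclic loess, the brighter probe set passed the 1.2-fold rule downward at 1 h.

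Of the inducible catalytic subunits, which replace the constitutive ones in the immunoproteasome after interferon exposure, Psmb9 and Psmb10 were measured. Psmb9 had log2 signals of 5.96, 6.11, 6.09 and 6.16 on the control, 0.5 h, 1 h and 3 h arrays, within 1 log2 unit of the floor. Psmb10 had 7.92, 7.84, 7.91 and 7.93. Neither moved past 1.2-fold, and with Psmb8 under the floor on every array the inducible set gave no call at any time.

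The ATPases Psmc1 to Psmc6 form the ring of the regulatory particle that unfolds substrates. By their brightest probe sets the 6 genes lay between -0.07 and 0.12 at all times, with medians of -0.01 at 0.5 h, 0.07 at 1 h and 0.00 at 3 h. At 0.5 h Psmc2 was the lowest of them, with log2 signals of 11.80, 11.75, 11.86 and 11.80 in array order. A second Psmc2 probe set, at 11.49 on the control array, had a ratio of 0.06 at 0.5 h, against -0.04 for the brightest.

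Psmc6 was the gene whose call depended most on the probe set. Its brightest probe set had log2 signals of 11.60 on the control array, 11.72 at 0.5 h, 11.67 at 1 h and 11.67 at 3 h, a difference of 0.12 at most. A second had 9.56, 9.88, 9.88 and 9.80, and the dimmest 7.42, 7.93, 7.90 and 7.59. All 3 probe sets were above their control value on every LIPUS array, and the dimmer pair passed 1.2-fold at 0.5 h and 1 h, with ratios of 0.32 and 0.52 at 0.5 h. With the mean of a gene's probe sets in place of the brightest, Psmc6 was the 1 proteasome gene at least 1.2-fold higher at 0.5 h and at 1 h. None of its probe sets passed 1.2-fold at 3 h.

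**Figure D2:**
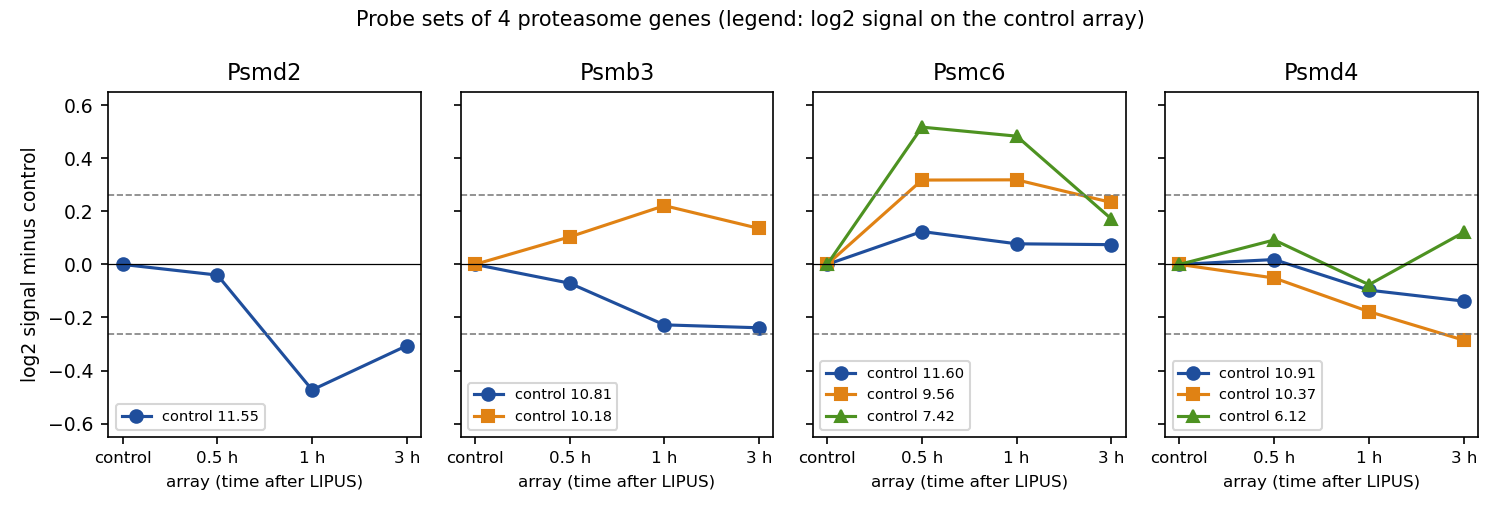
Log2 signal minus the control array's signal (y axis) on each array (x axis) for every probe set above the floor of Psmd2, Psmb3, Psmc6 and Psmd4; each line is 1 probe set, the legend gives its control signal, and the dashed lines mark 1.2-fold. The probe sets of Psmb3 part in opposite directions, at -0.23 and 0.22 at 1 h, and those of Psmc6 all lie above 0 by different amounts.

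The non-ATPase subunits of the regulatory particle held both the gene with the lowest ratio and one of the genes with the highest. Psmd2, a scaffold subunit of the base that binds ubiquitin shuttle proteins, had a log2 signal of 11.55 on the control array, 11.51 at 0.5 h, 11.07 at 1 h and 11.24 at 3 h. The 1 h and 3 h arrays lie below the other pair. The ratio to the control was -0.47 at 1 h, or 0.720 of the control signal, and -0.31 at 3 h, or 0.809 of it. From 0.5 h to 1 h, a step that does not use the control array, Psmd2 fell by 0.43 on the log2 scale. It was the 1 proteasome gene past 1.2-fold lower at 1 h, where 7.5% of all genes were, so a single gene among 37 is not above the background. The value rests on 1 probe set, since the other Psmd2 probe set lay under the floor on every array.

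Psmd1, the other large scaffold subunit of the base, was nearly level, with log2 signals of 11.63, 11.62, 11.65 and 11.64. Psmd14, the enzyme that cuts ubiquitin chains off the substrate, had 11.70 on the control array, 11.90 at 0.5 h, 11.92 at 1 h and 11.93 at 3 h. Its control array was the lowest of the 4, with ratios of 0.19, 0.22 and 0.22, all short of 1.2-fold and from 1 probe set. Psmd4, a ubiquitin receptor, had 10.91, 10.92, 10.81 and 10.77 by its brightest probe set. A second Psmd4 probe set was lower throughout, reaching -0.29 at 3 h, past 1.2-fold, and the dimmest had 0.12 at 3 h. The other 7 genes of this class were Psmd3, Psmd6, Psmd7, Psmd8, Psmd11, Psmd12 and Psmd13. By their brightest probe sets they lay between -0.11 and 0.16 on the log2 scale over the 3 times. A dim Psmd11 probe set had 0.38 at 0.5 h and -0.14 at 1 h, and a dim Psmd13 probe set had 0.21 at 3 h.

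Psmd5, Psmd9 and Psmd10 encode chaperones that assemble the base of the regulatory particle and leave the finished complex. Psmd10 had log2 signals of 8.79 on the control array, 8.99 at 0.5 h, 8.93 at 1 h and 8.79 at 3 h, with the early arrays above the other pair. Psmd9 had 8.35, 8.32, 8.29 and 8.22, and was lowest at 3 h. Psmd5 had 9.52, 9.54, 9.55 and 9.62, so by their brightest probe sets the 3 genes had different courses, none past 1.2-fold. A second, much dimmer Psmd9 probe set, at 5.52 on the control array, had a ratio of 0.05 at 3 h, against -0.14 for the brightest. Psmc3ip, with the shared prefix, lay between 0.02 and 0.08 by its brightest probe set.

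Between LIPUS times the picture was similar. From 0.5 h to 1 h, the median of the 37 genes was -0.01, with 0 past 2-fold (0.0434% of 11508 genes), 0 at least 1.2-fold higher (5.43%) and 1, Psmd2, at least 1.2-fold lower (4.43%). From 1 h to 3 h the median was -0.04, with 10 of 37 genes above 0, or 27.0%, against 45.0% of all genes. In that step 0 were past 2-fold (0.087% of 11495 genes), 0 at least 1.2-fold higher (3.61%) and 0 at least 1.2-fold lower (4.25%). Among all genes, 45.9% of the 1.2-fold calls of the later step were higher as deposited, 26.6% after centring and 59.4% after quantile normalization. For the step to 1 h the shares were 55.1%, 56.2% and 40.9%.

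Part of the chaperone genes on the same arrays moved on another scale. Of a list of 24, chosen with earlier results of these data known, 23 had a value. The number at least 2-fold higher was 6, 6 and 4 at 0.5, 1 and 3 h, where 0.138%, 0.191% and 0.0691% of all genes passed 2-fold. By the 1.2-fold rule 10, 13 and 13 of them were higher (2.61%, 9.19% and 5.84% of all genes), and 0 were lower (2.5%, 7.5% and 5.37%). By their brightest probe sets the other 13, 10 and 10 stayed within 1.2-fold, as proteasome genes did. Hsp90aa1, Hspa8, Hspd1 and Stip1 were among them at every time. A much dimmer Hspa8 probe set, at 6.32 on the control array, had ratios of 2.33, 1.51 and -0.29. Dimmer probe sets of other such genes also passed 1.2-fold, among them Ahsa1 with 0.83 at 0.5 h and Hsp90aa1 with 0.33 at 3 h. The list median was 0.23, 0.39 and 0.32 on the log2 scale, set beside 0.05, 0.06 and 0.01 for the proteasome genes. Hsph1, a nucleotide exchange factor of the HSP70 chaperones, had log2 signals of 10.93, 11.98, 12.30 and 12.70 on the control, 0.5 h, 1 h and 3 h arrays. They climbed with each later array. The co-chaperone gene Dnajb1 had 10.44, 12.90, 13.14 and 10.71 by its brightest probe set, whose 3 h ratio was 0.26, against 0.78 for its other probe set. The co-chaperone gene Bag3 had 10.67, 11.80, 11.98 and 11.21. Hspa1b, an inducible HSP70 gene, had 9.95, 13.44, 13.46 and 12.77. At 1 h its ratio was 3.51, and Hspa1a, its near-identical neighbour, was at least 6.05 higher on the log2 scale, because its control signal lay under the floor. Probe sets of that pair can share signal. Each of these 5 genes was above the highest proteasome ratio at 0.5, 1 and 3 h, which was 0.22 at each time.

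**Figure D3:**
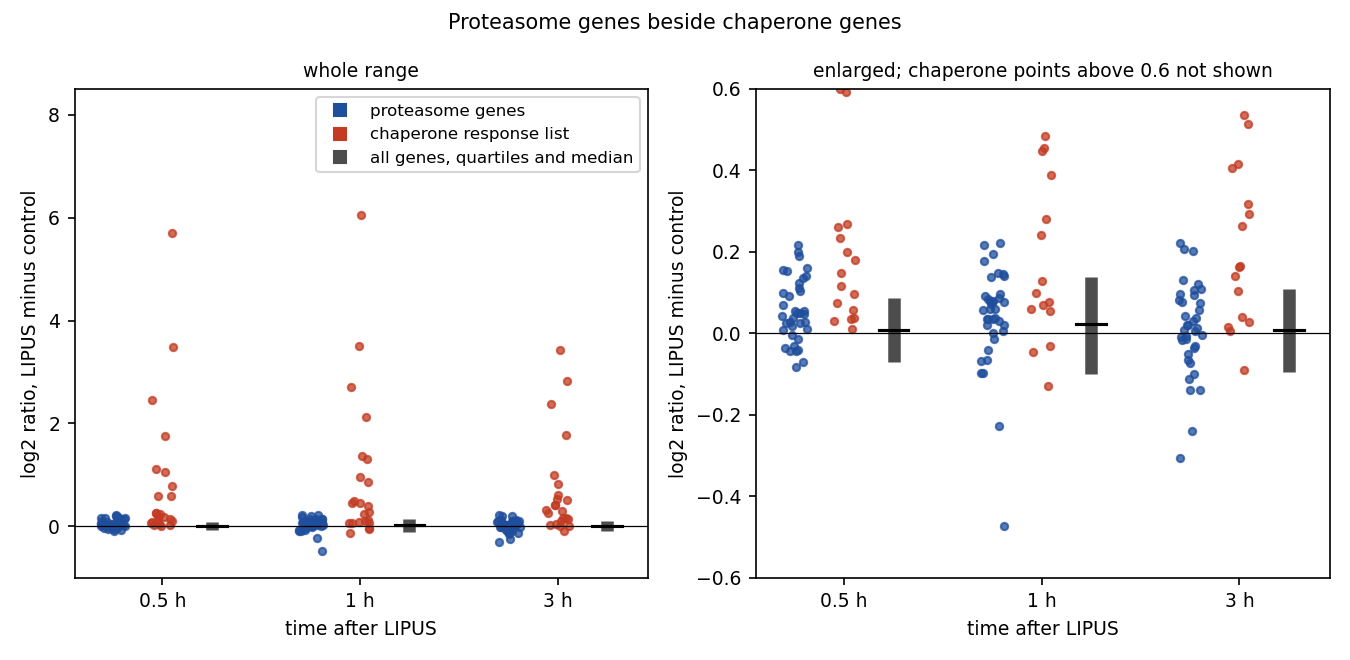
Log2 ratios of LIPUS arrays to the control array (y axis) by time (x axis) for the proteasome genes (blue points) and the chaperone list (red points), with the quartiles and median of all measured genes (grey bar, black line); the right panel enlarges the range around 0. Chaperone points reach 6.05, whereas the proteasome points stay between -0.47 and 0.22.

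Promoter sequence gives a way to set the gene groups side by side. RefSeq windows of 300 bases, 250 before and 50 after each annotated start on the GRCm38.p6 build, were matched by symbol for 33 of the 40 proteasome genes (35 windows) and for 20 of the 24 chaperone genes (27 windows). The heat shock element, the site of heat shock factors, was searched on both strands as 2 adjoining inverted units, GAANNTTC or TTCNNGAA, and as 3 units, GAANNTTCNNGAA. The antioxidant response element, the site of NFE2L1 and NFE2L2, was searched as TGACNNNGC, and the CCAAT box as CCAAT. Every match to the 3-unit form also contains the 2-unit form.

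Matches to the 2-unit heat shock element were in 3 of 35 proteasome windows (8.57%), in 14 of 27 chaperone windows (51.9%) and in 15.1% of all 32851 windows. The 3-unit form was in 0 of 35 proteasome windows, in 5 of 27 chaperone windows (18.5%) and in 0.603% of all windows. It is so rare that 0 of 35 is near the background. The chaperone list, of known heat-response genes, was chosen with earlier results known, so its share is no test. The proteasome windows with the 2-unit form were those of Psmb5, Psmb9 and Psmd4. The antioxidant response element was in 5 of 35 proteasome windows (14.3%), namely those of Psmb5, Psmb6, Psmc6, Psmd9 and Psmd12, in 3 of 27 chaperone windows (11.1%) and in 12.4% of all. CCAAT boxes were in 40.0%, 37.0% and 37.4% of the windows. A match describes letters in a window and shows no binding, and windows can overlap. The 5 chaperone windows with the 3-unit form belong to Chordc1, to 2 starts of Hsph1, and to Hspd1 and Hspe1, whose windows cover nearly the same bases. With overlapping windows counted once, the 3-unit form was in 0 of 35 proteasome windows, in 3 of 22 chaperone windows (13.6%) and in 0.595% of 29061 windows in all. The 2-unit form was then in 8.57%, 54.5% and 15.6%.

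**Figure D4:**
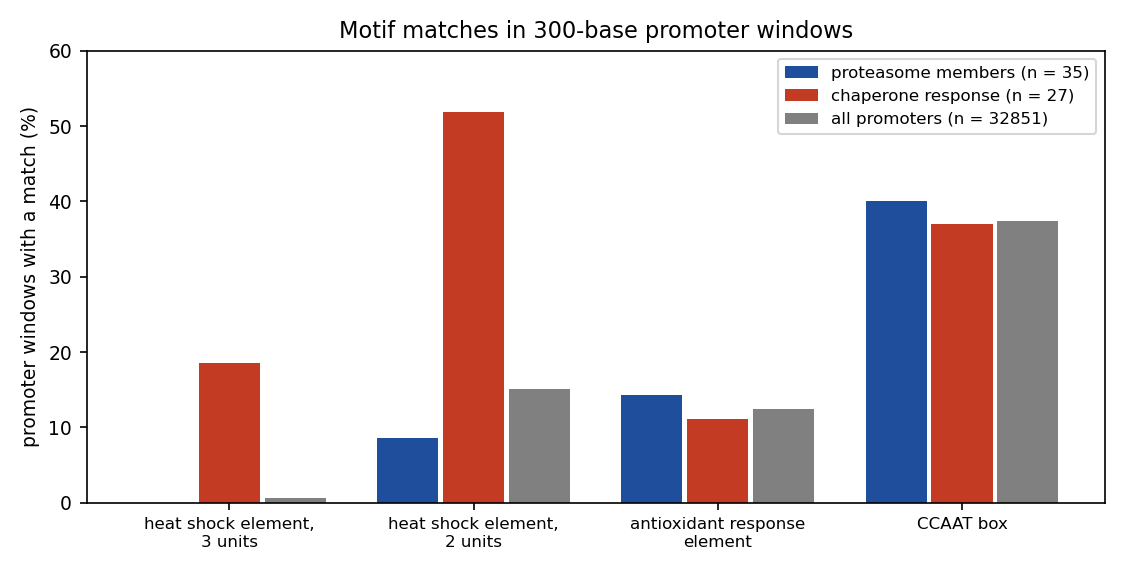
Share of 300-base promoter windows with at least 1 match (y axis, percent) for each motif (x axis), in windows of the proteasome genes, the chaperone list and all genes. The 2-unit heat shock element was in 8.57% of proteasome windows, 51.9% of chaperone windows and 15.1% of all windows.

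The windows of 4 genes show what such matches look like. Hsph1, from the chaperone list, holds the 3-unit heat shock element, a separate 2-unit match and 2 antioxidant response elements (chr5:149636287-149636586, minus strand). Psmb5 (chr14:54617946-54618245, minus strand) holds 1 match each of the 2-unit heat shock element and the antioxidant response element. Psmc6 (chr14:45329574-45329873, plus strand), whose probe sets were all higher after LIPUS, holds 1 antioxidant response element. Psmd2 (chr16:20651402-20651701, plus strand), the gene with the lowest ratio, holds neither. Psmc6 and Psmd2 were chosen for their values, so no relation between motif and ratio can be read from the 4 windows. The proteasome genes with a match had 3 h ratios of both signs, by their brightest probe sets. With the antioxidant response element, these were 0.02 for Psmb5, 0.10 for Psmb6, 0.07 for Psmc6, -0.14 for Psmd9 and -0.11 for Psmd12. With the 2-unit heat shock match, they were 0.02 for Psmb5, 0.20 for Psmb9 and -0.14 for Psmd4. The 4 windows are written 5′ to 3′ on the gene's strand. Capitals mark matches to the heat shock element and to the antioxidant response element, which overlap in none of the windows.
Hsph1: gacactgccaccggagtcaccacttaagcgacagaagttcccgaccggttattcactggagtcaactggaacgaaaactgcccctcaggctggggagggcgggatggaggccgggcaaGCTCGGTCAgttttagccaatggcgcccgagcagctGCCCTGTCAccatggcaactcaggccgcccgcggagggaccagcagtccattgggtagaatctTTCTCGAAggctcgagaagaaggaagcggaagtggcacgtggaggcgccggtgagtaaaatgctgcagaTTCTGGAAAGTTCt
Psmb5: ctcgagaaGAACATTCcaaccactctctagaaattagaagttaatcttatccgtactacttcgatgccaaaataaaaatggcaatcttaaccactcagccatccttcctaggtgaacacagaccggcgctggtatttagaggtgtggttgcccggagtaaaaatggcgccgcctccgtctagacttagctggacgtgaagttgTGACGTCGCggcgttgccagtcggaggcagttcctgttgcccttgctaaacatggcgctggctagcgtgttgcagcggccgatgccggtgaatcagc
Psmc6: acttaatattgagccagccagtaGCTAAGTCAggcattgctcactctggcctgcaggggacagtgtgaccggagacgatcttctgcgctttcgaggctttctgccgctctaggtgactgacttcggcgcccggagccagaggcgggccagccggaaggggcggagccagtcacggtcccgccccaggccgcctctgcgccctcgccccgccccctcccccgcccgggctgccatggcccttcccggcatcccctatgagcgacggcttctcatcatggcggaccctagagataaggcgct
Psmd2: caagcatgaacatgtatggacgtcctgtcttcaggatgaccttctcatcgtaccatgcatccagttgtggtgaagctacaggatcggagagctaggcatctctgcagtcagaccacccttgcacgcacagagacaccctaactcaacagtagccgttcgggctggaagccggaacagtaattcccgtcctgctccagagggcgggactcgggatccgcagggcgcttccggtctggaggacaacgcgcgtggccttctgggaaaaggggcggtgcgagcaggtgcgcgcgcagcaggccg

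In the Hsph1 window the 3-unit match lies downstream of the start. It appears as 1 run of capitals at the end of the sequence, where TTCNNGAA and GAANNTTC overlap. The separate 2-unit match, TTCTCGAA, lies upstream of the start. In the Psmb5 window the antioxidant response element lies close upstream of the start and the heat shock match at the far upstream end.

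Other genes that make, activate or steer the proteasome were described from a list of 21, of which 18 had a value. At 0.5 h, 1 of 18 was at least 1.2-fold higher and 0 lower. At 1 h 2 were higher and 1 lower, and at 3 h 0 were higher and 3 lower. Over all genes the shares higher and lower were 2.61% and 2.5% at 0.5 h, 9.19% and 7.5% at 1 h, and 5.84% and 5.37% at 3 h, and the counts of 1 h are near them. Zfand2a, which encodes a heat- and arsenite-inducible protein that binds the regulatory particle, was highest at 1 h, as were Dnajb1 and Bag3. Its log2 signals were 9.01 on the control array, 9.61 at 0.5 h, 10.01 at 1 h and 9.07 at 3 h. Its 1 h ratio of 1.00 met the 2-fold rule. Its 2 other probe sets above the floor gave 0.94 and 1.00 at 1 h.

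Genes of proteasome activators and assembly moved less and in both directions. Psme1, a subunit of the interferon-inducible cap of the core particle, had log2 signals of 8.88, 9.07, 9.21 and 9.13, with a ratio of 0.33 at 1 h. Psmg2, a chaperone of alpha ring assembly, had 10.29, 10.31, 9.96 and 9.91, with the 1 h and 3 h arrays below the other pair. Its ratios there were -0.34 and -0.38, and -0.11 and -0.19 by its other measured probe set. Psme3, another activator, and Usp14, a ubiquitin protease of the regulatory particle, were lower by 1.2-fold at 3 h by their brightest probe sets, at -0.31 and -0.30. Their other probe sets above the floor ran from -0.14 to 0.05 at that time.

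Pomp, which matures the core particle, had ratios of 0.03, 0.11 and 0.10 at 0.5, 1 and 3 h. Psme4, an activator, had 0.03, 0.06 and 0.06, and Psmf1, an inhibitor, 0.00, -0.03 and -0.08. Akirin2, which brings proteasomes into the nucleus, had 0.13, 0.17 and 0.19, and Zfand5, an activator, 0.04, 0.21 and 0.15. None of these 5 genes passed 1.2-fold at any time by its brightest probe set. A dimmer Zfand5 probe set reached -0.37 at 3 h and a dimmer Psmf1 probe set -0.28.

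Of the regulators of proteasome transcription, Nfe2l1 and Nfe2l2 stayed within 1.2-fold of the control array. Nfe2l1 had log2 signals of 9.91, 9.83, 9.90 and 9.96 on the control, 0.5 h, 1 h and 3 h arrays, and Nfe2l2, the related antioxidant response factor, had 10.18, 10.00, 10.11 and 10.16. Of 7 measured regulators, 1 was at least 1.2-fold lower at 1 h (7.5% of all genes) and 0 higher (9.19%). None passed at 0.5 or 3 h by its brightest probe set. The SD of their log2 ratios at 1 h was 0.19, against 0.22 over all genes. Nfya, a subunit of the CCAAT-binding factor, had a ratio of -0.28 at 1 h, and -0.40 by its second probe set. At 3 h the second probe set had -0.36, past 1.2-fold, against -0.06 for the brightest.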

How the data were processed

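RNA of ST2 cells was read, with 1 array for each of 4 samples, on Affymetrix Mouse Genome 430 2.0 arrays. The authors deposited 1 log2 value per probe set and array, and the log base was taken from the values' range, 1.53 to 14.5. The summarisation and normalization methods are not given in the sources used here. A summarisation that compresses the ratios of bright probe sets, if used, would carry over into these values.

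Of 45101 probe sets, 34958 had 1 gene symbol and 932 several in the platform annotation, and 34754 were updated by Entrez number. Only probe sets with 1 symbol were used, and the brightest on average stood for a gene. Values were raised to the floor of 5.23, and a gene entered a comparison when 1 of its arrays lay above it. Ratios are differences of log2 values, with calls at 2-fold and 1.2-fold. With 1 array per group there is no p-value, and the number of arrays limits the precision. The calculation was tested on simulated data.

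The members, lists, motifs and alternatives were chosen with earlier results of these data known. Values on every array are given for catalytic genes, the 3 highest and 3 lowest ratios per time, and members past 2-fold, and members past 1.2-fold are named. Other genes were named after their values were seen, among them Psma3, Psmd1, Psmd12, Psmd4, Psmd5 and Psmc6. Some genes of the planned lists are not reported here. Alternatives covered the floor, scaling, probe sets, members and array compared with. Python 3.11.15, numpy 2.4.6, pandas 2.3.3, matplotlib 3.10.9, R 4.3.3 and limma 3.58.1 were used.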

Additional observations from a re-analysis of the deposited data

Results flagged for a closer look

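Probe sets that did not stand for their gene were examined for values at least 1.2-fold above the control array. Of 23 such probe sets of proteasome genes above the floor on every array, 3 were so at 0.5 h, 3 at 1 h and 0 at 3 h. That is 13.0%, 13.0% and 0.0%, against 2.81%, 11.4% and 5.85% of the 8250 probe sets of all genes chosen in the same way, so the 1 h share is near the background. At 0.5 h the 3 come from 2 genes, Psmc6 and Psmd11. The dimmest Psmc6 probe set had log2 ratios of 0.52 at 0.5 h and 0.48 at 1 h. The second had 0.32 at 0.5 h and 0.32 at 1 h, against 0.12 and 0.08 for the brightest. A dim Psmd11 probe set, for a lid subunit of the regulatory particle, had 0.38 at 0.5 h, with log2 signals of 5.95, 6.33, 5.80 and 5.89 on the control, 0.5 h, 1 h and 3 h arrays, and the brightest Psmd11 probe set had -0.003 at that time. The second Psmc3ip probe set had 0.35 at 1 h, with signals of 7.62, 7.79, 7.97 and 7.76 in the same order, against 0.02 for the brightest. The cause of these differences between probe sets was not tested.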

How the results depend on the processing

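Across 11 alternatives (10 for steps between LIPUS times), 0 proteasome genes passed 2-fold in any comparison. The median ranged from 0.03 to 0.07 at 0.5 h, from 0.02 to 0.08 at 1 h and from -0.02 to 0.04 at 3 h. Counts at 1.2-fold changed as follows, and the causes beyond the setting itself were not tested. With no floor, 1 gene (Psma8, at signals under the floor) was higher at 0.5 h and 1 at 3 h, and 2 (Psma8 and Psmb11) from 1 h to 3 h. With the floor at the 25th percentile 1 gene (Psmb11) was higher in that step. With the mean of all probe sets, 1 gene (Psmc6) was higher at 0.5 h and 1 at 1 h, and 0 were lower at 3 h. With the mean of probe sets above the floor on every array, 1 gene (Psmc6) was higher at 0.5 h and 1 at 1 h. That alternative was chosen after seeing the data. After quantile normalization and after cyclic loess, 2 genes (Psmb3 and Psmd2) were lower at 1 h. Against the mean of the other 3 arrays, 0 were lower at 3 h. Psmd2 was lower by 1.2-fold at 1 h under all of the 11 alternatives. No paired analysis was possible because each group has 1 array. For a single gene, differences near 0.1 on the log2 scale lie within the disagreement of its probe sets, and the spread between cultures was not measured.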

Other observations

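Ubiquitin-handling genes gave no call by their brightest probe sets. Of 15 ubiquitin genes and shuttle factors listed, 9 had a value, and 0 passed 1.2-fold at 0.5, 1 or 3 h, with medians of 0.04, 0.02 and -0.03. Over all genes 2.61%, 9.19% and 5.84% were higher and 2.5%, 7.5% and 5.37% lower, so 0 of 9 is near the background. Dimmer probe sets of 3 of these genes did pass 1.2-fold. One of Uba6, a ubiquitin-activating enzyme, had 0.42 at 1 h and 0.28 at 3 h. One of the shuttle gene Ubqln4 had -0.36 and -0.48 at those times, and one of the shuttle gene Ubqln2 had -0.32 at 1 h. Vcp, the segregase that extracts ubiquitin-tagged proteins for the proteasome, had the lowest ratios of the brightest probe sets at 1 h and 3 h, with log2 signals of 12.18 on the control array, 12.07 at 0.5 h, 11.93 at 1 h and 11.94 at 3 h. The shuttle gene Rad23b had 11.10, 11.15, 11.12 and 11.12.

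Interferon-response genes that share control with the inducible subunits were measured in small number. Of 6 measured, 1, 2 and 0 were at least 1.2-fold higher at 0.5, 1 and 3 h, and 0 were lower, by their brightest probe sets. The shares of all genes that were higher were 2.61%, 9.19% and 5.84%, and with 6 genes a single call is a large share. Tap2, a peptide transporter gene of antigen presentation, had ratios of 0.28, 0.36 and 0.20, and Psme1 had 0.19, 0.33 and 0.26. Tap1, the partner of Tap2, had -0.06, -0.10 and -0.13, and the transcription factor gene Irf1 had 0.04, 0.00 and -0.02. A dimmer probe set of Tapbp, whose protein loads peptides onto MHC molecules, was lower at 1 h (-0.37) and at 3 h (-0.29), where its brightest had -0.06 and 0.09.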
